A study of Mus musculus with 2 samples.

Results

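miR-451a, miR-144 and miR-486 are microRNAs abundant in cells of the red blood cell lineage, though miR-486 is made in striated muscle as well. Here they were followed in mouse liver after short-term ethanol feeding, and erythroid names is used below only as a label for them. Their members were taken by exact name from each of the 2 deposited tables, called experiments 1 and 2, and all 7 names were found in both. The names are mmu-miR-451a, both strands of miR-144 (mmu-miR-144-5p and mmu-miR-144-3p), and both strands of the copies of miR-486 (mmu-miR-486a-5p, mmu-miR-486a-3p, mmu-miR-486b-5p and mmu-miR-486b-3p). They stand among 484 names listed in experiment 1 and 1915 in experiment 2, of which 469 were above 0. The set was chosen by the ratios of ethanol-fed to pair-fed values in these same libraries, as known from earlier work on them, so the differences below are descriptions without a test.

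The livers came from female C57BL/6 wild-type mice, 8 to 10 weeks old. Both groups first had the control Lieber-DeCarli liquid diet for 5 days. The ethanol-fed mice then had the same diet with 5% (v/v) ethanol for 10 days and a gavage of 6 g/kg ethanol on day 16, whereas pair-fed mice stayed on a control diet of equal calories and had a gavage of isocaloric dextrin-maltose, and livers were taken 9 h after the gavage. The series' design text instead gives the feeding as 16 days. Each table holds 1 ethanol-fed and 1 pair-fed library of small RNAs from total liver RNA, the labels list 1 sample per group, and neither the animals or pools behind a library nor any perfusion of the livers is given in the sources used here. There is therefore no spread between animals, every comparison is between 2 libraries, and all intervals below are 95% intervals for counting error only. PCR copies were not told apart, so reads may not be separate counts and the intervals may be too narrow.

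Red blood cell precursors carry miR-144 and miR-451a on 1 primary transcript that the erythroid factor GATA1 switches on. miR-451a is matured in an unusual way, as its hairpin is too short for Dicer and is cut by the Argonaute protein AGO2, so it leaves no partner strand, whereas miR-144 gives a 5′ and a 3′ strand as most hairpins do. miR-486 lies in *Ank1*, the gene of the red cell membrane protein ankyrin-1, and is also made in striated muscle. Mature red cells have no nucleus but keep these microRNAs, so a liver that still holds blood carries them too. In bulk tissue, fewer cells of a type and less RNA per cell cannot be told apart.

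The mature sequences are shown because the seed, the bases 2 to 8 counted from the 5′ end and printed in capitals, sets which messages a microRNA can pair with, and because the strands of 1 locus can be told apart by sequence. They are from RefSeq (GRCm38.p6), whose table matched 3 of the 7 names.
miR-451a: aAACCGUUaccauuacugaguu
miR-144-3p: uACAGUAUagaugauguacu
miR-144-5p: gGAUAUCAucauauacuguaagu
miR-101a-3p: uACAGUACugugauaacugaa
No other of the 1679 mature names in the table has the seed of miR-451a, of miR-144-3p or of miR-144-5p. miR-101a-3p, a microRNA made by hepatocytes, is shown because it shares bases 1 to 7 with miR-144-3p. It is the only other of the 1679 names with the same bases 2 to 7, and names outside these were not compared. The first difference between miR-101a-3p and miR-144-3p, counted from the 5′ end of miR-144-3p, is U8C.

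In GRCm38, miR-144-5p lies at chr11:78073010-78073032, miR-144-3p at chr11:78073047-78073066 and miR-451a at chr11:78073186-78073207, all on the plus strand. Their genes, *Mir144* and *Mir451a*, are 99 bases apart in the GENCODE vM21 annotation and lie in no host gene, 134 bases from the end of the neighbouring gene *Eral1*. *Mir451b* is annotated on the minus strand over the same bases as *Mir451a*. In the fold computed for the 72-base *Mir451a* hairpin, miR-451a takes 18 bases of the 5′ side and all 4 bases of the loop. In that of the 66-base *Mir144* hairpin, miR-144-5p and miR-144-3p lie on opposite sides of a loop of 6 bases and take none of it. *Mir486* (chr8:23142555-23142682, plus strand), the gene of miR-486a, lies in an intron of *Ank1*. *Mir3107* (chr8:23142573-23142662, minus strand), the gene of miR-486b, lies on the opposite strand inside it, in an intron of the antisense RNA gene *Gm15816*, so the 2 names come from both strands of 1 stretch of DNA and can share reads.

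Levels are reads per 1000000 reads on microRNAs (RPM). Experiment 1 holds whole reads, 4170601 with pair-feeding and 4311802 with ethanol. Experiment 2 holds RPM, whose small values are spaced by multiples of 0.0925 RPM with pair-feeding and of 0.0924 RPM with ethanol. With this spacing taken as 1 read, its totals are estimated at 10811808 and 10819735 reads, and its read numbers below are estimates on this basis. Not every small value fell on the spacing (97.0% and 96.6% did), so the reads of experiment 2 were not recovered exactly and the intervals printed for it are approximate. Hepatocyte microRNAs (miR-122, miR-192, miR-194, miR-148a and miR-802 forms, 6 names) summed to 462759 RPM with pair-feeding and 453380 RPM with ethanol in experiment 1, and to 509994 and 479734 RPM in experiment 2. All 6 were above 0 in the 4 libraries. The makeup of these sums differed between the tables. miR-122-5p had 2971 RPM with pair-feeding and 2210 RPM with ethanol in experiment 1, but 182938 and 156660 RPM in experiment 2. miR-192-5p went the other way, with 388161 and 373090 RPM in experiment 1 and 117318 and 109724 RPM in experiment 2. Pairs of values below are given with the pair-fed library first.

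In experiment 1, all 7 erythroid names were higher in the ethanol-fed library. Summed, they took 2.57% of the microRNA reads with pair-feeding and 6.91% with ethanol. The 5′ strands of miR-486 alone held 25604 and 68925 of every 1000000 reads, whereas miR-451a and both strands of miR-144 together held 47.0 and 194. With the miR-486b names left out of the sum and of the total, since copies can repeat reads, the shares were 1.17% and 3.52%. In experiment 2 the same 7 names took 0.265% and 0.170%, or 0.183% and 0.116% without miR-486b. There the 5′ strands of miR-486 held 1636 and 1081 of every 1000000 reads, and miR-451a with both strands of miR-144 held 1008 and 612. The direction thus differed between the experiments, and so did the level, as the plot of levels by library shows, although the tables were normalized separately.

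**Figure D1:**
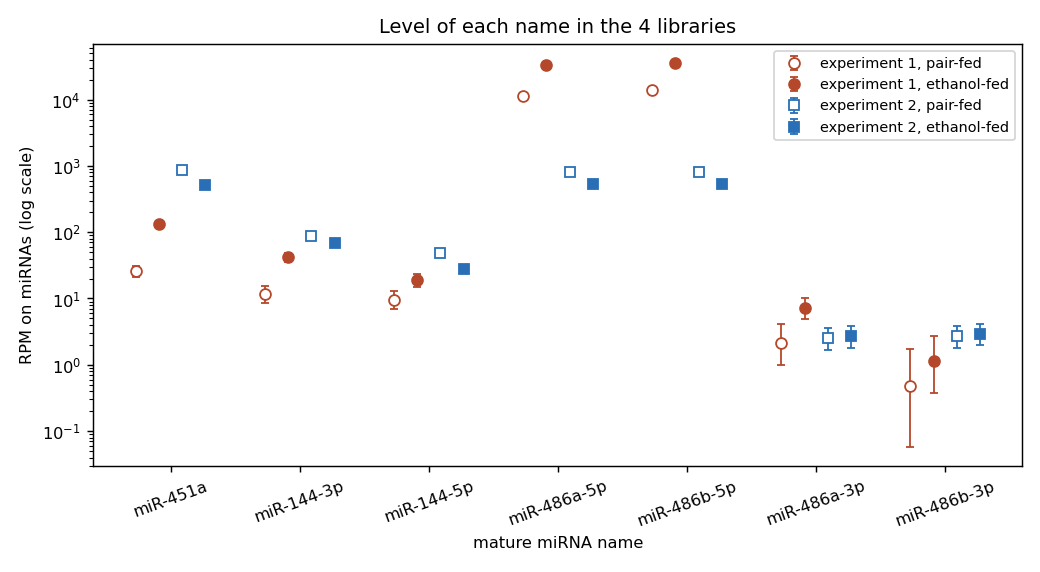
RPM on microRNAs (log scale) of the 7 names with pair-feeding (open) and ethanol (filled) in experiment 1 (circles) and experiment 2 (squares); bars are 95% Poisson intervals for counting error, and each point is 1 library. In experiment 1 every filled circle lies above its open circle, whereas in experiment 2 the filled square lies below the open one for 5 names and slightly above it for the 3′ strands of miR-486.

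miR-451a, which restrains the adaptor gene *Ywhaz* in red cell precursors, had 107 reads (25.7 RPM) with pair-feeding and 574 reads (133 RPM) with ethanol in experiment 1. The ethanol-fed library was thus 5.19-fold higher (interval 4.21 to 6.44), a log2 ratio of 2.36 that was the 8th highest of the 302 microRNAs with at least 10 reads in both libraries together. In experiment 2 it had 873 RPM (9442 reads) in the pair-fed and 514 RPM (5558 reads) in the ethanol-fed library, and the ethanol-fed level was 58.8% of the pair-fed one. That log2 ratio, -0.77 (-0.81 to -0.72), was the 89th lowest of 469. The name miR-451b, of the opposite strand, was not listed in experiment 1 and stood at 0 in both libraries of experiment 2, where a 0 can stand for up to 9 reads.

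miR-144-3p, a regulator of the antioxidant factor gene *Nfe2l2* in red cells, had 49 and 180 reads (11.7 and 41.7 RPM) in experiment 1. It was 3.55-fold higher with ethanol (2.58 to 4.98), at log2 1.81. Its levels in experiment 2 were 86.7 RPM with pair-feeding and 69.6 RPM with ethanol, a log2 ratio of -0.32 (-0.46 to -0.18).

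miR-144-5p, the other strand of the hairpin, had 40 and 81 reads (9.59 and 18.8 RPM) in experiment 1, 1.96-fold higher in the ethanol-fed library (1.33 to 2.94). Its log2 ratio of 0.95 lay just under the 2-fold line at 1 and came to 1.02 when the 7 names were left out of the library totals. In experiment 2 it had 48.5 RPM with pair-feeding and 28.3 RPM with ethanol, with a log2 ratio of -0.78 (-0.99 to -0.57). From the same transcript, miR-451a stood at -0.77 and miR-144-3p at -0.32 there. In experiment 1 the log2 ratios were 0.95 for miR-144-5p, 2.36 for miR-451a and 1.81 for miR-144-3p.

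The 5′ strand of miR-486, which targets the transcription factor gene *Foxo1*, was the most abundant of the group. In experiment 1, miR-486a-5p had 48013 reads (11512 RPM) with pair-feeding and 145399 reads (33721 RPM) with ethanol, and miR-486b-5p had 58771 (14092 RPM) and 151792 (35204 RPM). They were the 12th and 10th most abundant names of the pair-fed library and the 7th and 6th of the ethanol-fed library. The ethanol-fed library was 2.93-fold higher for miR-486a-5p (2.90 to 2.96) and 2.50-fold for miR-486b-5p (2.47 to 2.52). In experiment 2, both names were listed with the same value, 818 RPM with pair-feeding and 540 RPM with ethanol, a log2 ratio of -0.60 (-0.65 to -0.55) each.

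The copies were not listed as equal in experiment 1. miR-486a-5p made up 45.0% of the reads of the 2 names with pair-feeding and 48.9% with ethanol, and its log2 ratio was 0.23 above that of miR-486b-5p (0.21 to 0.25). This interval covers counting error and not how reads were given to the names, so no difference between the copies is read from it. Since reads of this locus can be given to either name, values of a single copy are uncertain, and whether a read was divided between the names or counted under both is not given in the sources used here.

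The 3′ strands of miR-486 were rare in all 4 libraries. miR-486a-3p had 9 and 31 reads (2.16 and 7.19 RPM) in experiment 1, 3.33-fold higher (1.55 to 7.96). miR-486b-3p had 2 and 5 reads there, under the minimum of 10 in all, and the interval of its fold, 0.396 to 25.4, includes 1. In experiment 2, miR-486a-3p had 2.50 and 2.68 RPM and miR-486b-3p had 2.68 and 2.96 RPM, and the intervals of both log2 ratios, -0.71 to 0.91 and -0.63 to 0.92, include 0. At this depth, no difference of the 3′ strands was detectable in experiment 2.

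**Figure D2:**
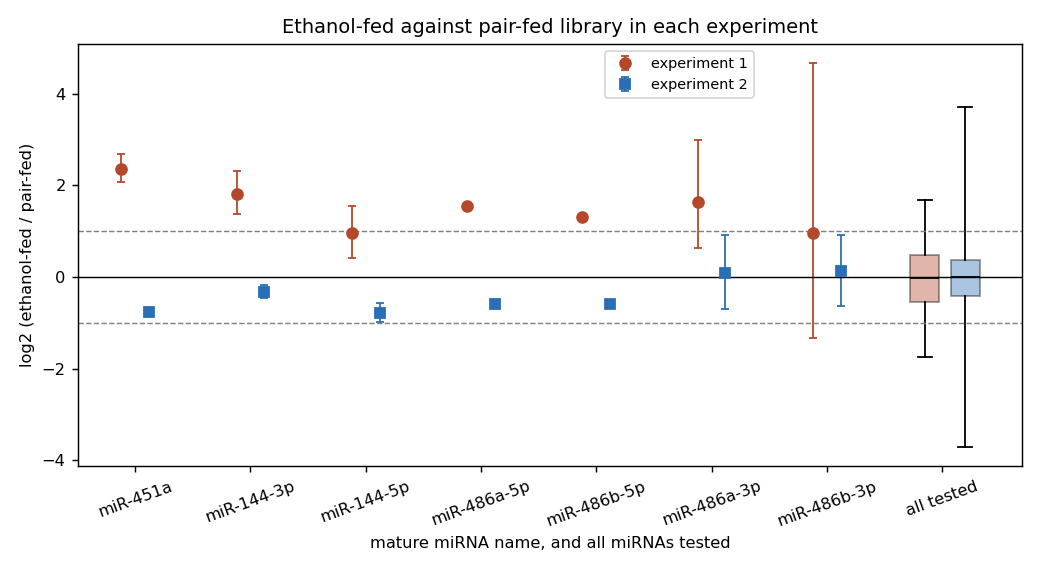
Log2 ratio of the ethanol-fed over the pair-fed library for the 7 names in experiment 1 (circles) and experiment 2 (squares), with 95% intervals for counting error (from estimated reads in experiment 2), and at the right all microRNAs tested (box: quartiles; line: median; whiskers: 5th to 95th percentile). Dashed lines mark 2-fold. The circles lie between 0.95 and 2.36 and the squares between -0.78 and 0.14.

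Counted against all microRNAs, 5 of the 6 names tested in experiment 1 were at least 2-fold higher in the ethanol-fed library and 0 were lower, beside 12.6% higher and 12.9% lower of the 302 tested. The names were chosen with this contrast known, so nothing is read from the count. All 6 were above 0, as were 48.7% of the 302, and 0 were below, beside 51.3%. Their median log2 ratio was 1.59, or 1.55 with all 7 names, and that of the 302 was -0.01. In experiment 2, 0 of 7 names were at least 2-fold lower and 0 higher, where 15.1% of 469 microRNAs were lower and 10.7% higher. Below 0 were 5 of the 7, beside 49.7%, and above 0 were 2, beside 50.3%. The median log2 ratio of the 7 was -0.60 and that of the 469 was 0.0026. miR-486a-5p and miR-486b-5p were listed with the same value there, which is this median, so 1 value may count as 2 of the 5. miR-451a and both strands of miR-144 come from 1 transcript, so the names are not separate measurements. A share of 23.3% of the 283 microRNAs tested in both experiments was above 0 in experiment 1 and below 0 in experiment 2, as were 5 of the 6 erythroid names tested in both.

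**Figure D3:**
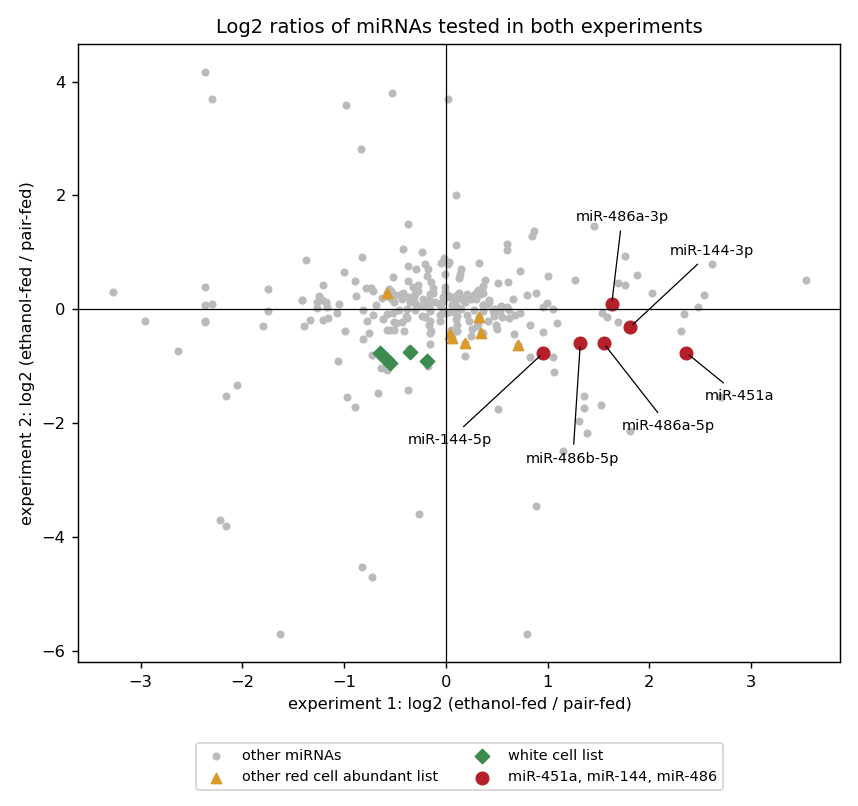
Log2 ratio (ethanol-fed over pair-fed) in experiment 1 (x axis) against experiment 2 (y axis) for the 283 microRNAs tested in both, 1 point each; the 6 erythroid names tested in both are labelled, and the lists of other red cell and of white cell microRNAs are marked. The erythroid names lie to the right of 0, and 5 of them lie below 0 on the y axis, whereas the white cell names lie below 0 on both axes.

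Ratios between names within 1 library do not depend on its total. miR-451a, which comes from the same transcript as miR-144, outnumbered miR-144-3p in each of the 4 libraries, but by different factors. There were 2.18 (1.54 to 3.13) reads of miR-451a for each of miR-144-3p with pair-feeding and 3.19 (2.69 to 3.79) with ethanol in experiment 1, and 10.1 (9.42 to 10.8) and 7.38 (6.84 to 7.98) in experiment 2. The log2 ratio of miR-144-3p to miR-451a changed by -0.55 (-1.09 to -0.0020) from pair-feeding to ethanol in experiment 1 and by 0.45 (0.30 to 0.60) in experiment 2. That of miR-144-5p to miR-451a changed by -1.41 (-2.03 to -0.78) in experiment 1 and by -0.01 (-0.22 to 0.20) in experiment 2.

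The strands of miR-144 differed in the same direction in both experiments. miR-144-5p over miR-144-3p was 0.816 (0.524 to 1.27) with pair-feeding and 0.450 (0.342 to 0.588) with ethanol in experiment 1, and 0.559 (0.502 to 0.623) and 0.406 (0.355 to 0.465) in experiment 2. The 5′ strand was thus a smaller share with ethanol in both, with changes of -0.86 (-1.57 to -0.15) and -0.46 (-0.71 to -0.21) on the log2 scale.

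Of these ratios within a library, the largest gap between experiments lay in miR-486a-5p against miR-451a. In experiment 1 there were 449 (371 to 548) reads of miR-486a-5p for each of miR-451a with pair-feeding and 253 (233 to 275) with ethanol, whereas in experiment 2 the numbers were 0.937 (0.910 to 0.964) and 1.05 (1.01 to 1.09). The excess of the 5′ over the 3′ strand of miR-486a was likewise 5335-fold (2810 to 11667) and 4690-fold (3304 to 6903) in experiment 1 against 327-fold (225 to 497) and 202-fold (140 to 301) in experiment 2. On the log2 scale, both gaps between experiments are larger than the difference between feeding groups within either experiment in the same ratio.

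**Figure D4:**
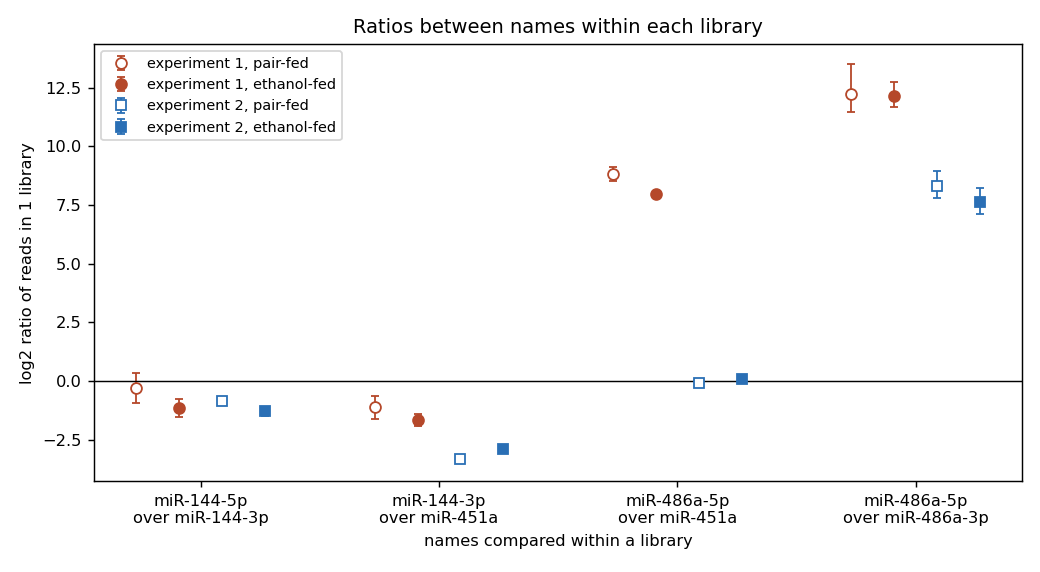
Log2 ratio of the reads of 2 names within a library, for pair-fed (open) and ethanol-fed (filled) libraries of experiment 1 (circles) and experiment 2 (squares), with 95% intervals for counting error (from estimated reads in experiment 2). The squares and circles of miR-486a-5p over miR-451a are farthest apart, near 0 in experiment 2 and between 7.98 and 8.80 in experiment 1.

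miR-101a-3p, which shares bases 2 to 7 with miR-144-3p, was far more abundant in these livers. It had 2080 and 2148 RPM in experiment 1 and 8281 and 9605 RPM in experiment 2. For each read of miR-144-3p there were 177 and 51.4 reads of miR-101a-3p in experiment 1, and 95.6 and 138 in experiment 2. miR-101a-3p thus exceeded miR-144-3p in all 4 libraries, and its own log2 ratios for ethanol were 0.046 and 0.21.

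Other cell types were followed by lists of their microRNAs, in the same libraries. Beside the counts of these lists stand the shares over all microRNAs tested. Above 0 were 48.7% in experiment 1 and 50.3% in experiment 2, and below 0 were 51.3% and 49.7%. Red cells also hold much miR-16, miR-92a and miR-25, which many other cells make as well. The 9 names of this list are miR-16-5p, miR-92a-3p, miR-25-3p, miR-93-5p, miR-106b-5p, miR-15a-5p, miR-185-5p, miR-363-3p and miR-210-3p. In experiment 1, 7 were tested, with 6 above 0 and 1, miR-210-3p, below, a median log2 ratio of 0.19 and 0 past 2-fold. The counting intervals of miR-16-5p (-0.01 to 0.10), miR-106b-5p (-0.33 to 1.92) and miR-210-3p (-1.27 to 0.08) included 0. In experiment 2, 2 of 9 were above 0 and 7 below, with a median of -0.41 and again 0 past 2-fold. There the intervals of miR-185-5p (-0.01 to 0.10) and miR-363-3p (-1.26 to 0.77) included 0. The sum of the list went from 3776 RPM with pair-feeding to 4139 RPM with ethanol in experiment 1, and from 5636 to 4654 RPM in experiment 2. miR-16-5p, the most abundant in experiment 1, had 1385 and 1427 RPM there, and miR-92a-3p, the most abundant in experiment 2, had 2256 and 2052 RPM.

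The names that decline as red cell precursors mature (miR-221-3p, miR-222-3p and miR-24-3p) were below 0 in 3 of 3 in experiment 1 (median -0.32) and in 1 of 3 in experiment 2 (median 0.082). The counting intervals of miR-221-3p included 0 in experiment 1 (-0.33 to 0.28) and in experiment 2 (-0.07 to 0.04). So did that of miR-222-3p in experiment 2 (-0.06 to 0.22). The most abundant name of the list, miR-24-3p, had 184 and 147 RPM in experiment 1 and 2629 and 3430 RPM in experiment 2.

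White cells enter a liver sample with the blood but also reside in the organ. Their list (both strands of miR-142a and miR-223, with miR-150-5p and miR-155-5p) was below 0 in 5 of 5 names tested in experiment 1 and in 6 of 6 in experiment 2, with medians of -0.55 and -0.82. In experiment 1 the counting intervals of miR-223-5p (-0.95 to 0.23) and miR-142a-3p (-1.17 to 0.03) included 0. So did that of miR-155-5p in experiment 2 (-0.69 to 0.03). miR-155-5p was not tested in experiment 1, where it had 0 reads with pair-feeding and 4 with ethanol. The sum went from 417 RPM with pair-feeding to 346 RPM with ethanol in experiment 1 and from 898 to 481 RPM in experiment 2. The most abundant name, miR-142a-5p, had 308 and 272 RPM in experiment 1 and 583 and 309 RPM in experiment 2. In experiment 2 the white cell names tested and 5 erythroid names were lower with ethanol, whereas in experiment 1 the white cell names tested were lower and the erythroid names higher. The part of blood content in either result was not tested.

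Striated muscle makes miR-486 as well. Its list (miR-1a, miR-133a, miR-133b, miR-206, miR-208a, miR-208b and miR-499 forms, 7 names) summed to 0.719 RPM with pair-feeding and 4.64 RPM with ethanol in experiment 1. Of its names, miR-1a-3p was not listed there, and miR-133a-3p, the only one tested, had 2 and 18 reads (log2 2.61, 1.06 to 6.27 by counting). The muscle list in experiment 2 summed to 74.3 and 117 RPM, with 3 of 3 tested names above 0, a median of 0.67, and 69.9 and 111 RPM of miR-1a-3p. miR-206-3p and both miR-208 forms were not listed in experiment 1 and stood at 0 in experiment 2. The summed level was thus higher with ethanol in both experiments, and their part in the miR-486 values was not tested.

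Hepatocyte names were split, with 3 of 6 above 0 in each experiment and medians of 0.0075 and -0.04. The list was led by miR-192-5p in experiment 1 (388161 and 373090 RPM) and by miR-148a-3p in experiment 2 (185558 and 187898 RPM). The endothelium and platelet names, miR-126a-3p and miR-126a-5p, were above 0 in both experiments, and summed to 3854 and 5142 RPM in experiment 1 and to 22335 and 26332 RPM in experiment 2. miR-126a-5p, with 3560 and 4791 RPM, led in experiment 1 and miR-126a-3p, with 21096 and 24945 RPM, in experiment 2. Of the 4 mesenchyme names, 3 were above 0 in experiment 1 (median 0.71) and 2 in experiment 2 (median 0.03). The leading miR-143-3p had 96276 and 95735 RPM in experiment 1 and 15722 and 20681 RPM in experiment 2. Past 2-fold were miR-145a-5p with 119 and 256 reads and miR-214-3p with 3 and 20 reads, both in experiment 1.

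**Figure D5:**
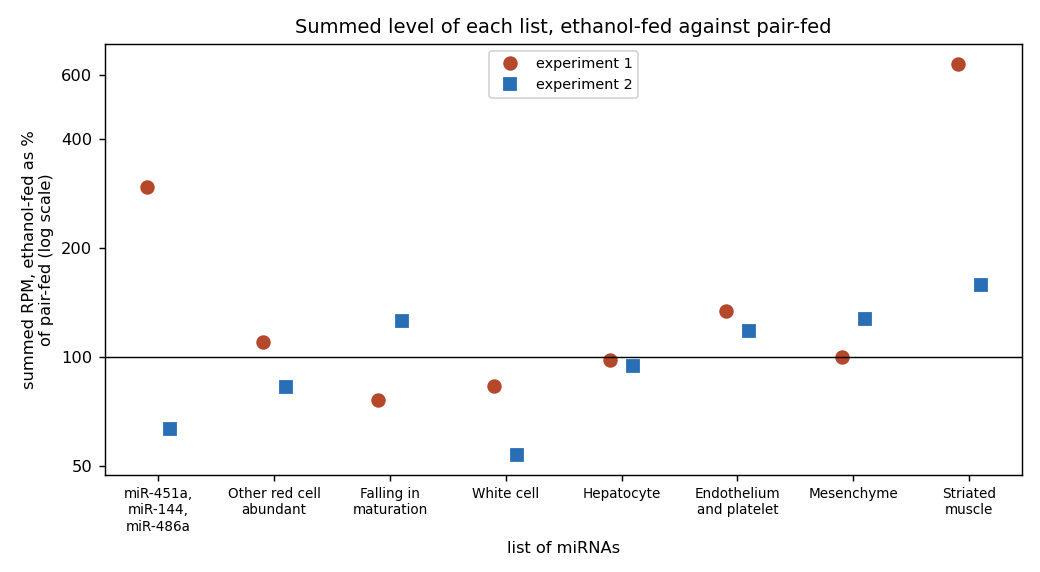
Summed RPM of each list in the ethanol-fed library as a percentage of that in the pair-fed library (log scale), for experiment 1 (circles) and experiment 2 (squares); the line at 100 marks equal sums. miR-451a, miR-144 and miR-486a stood at 293% in experiment 1 and 63.1% in experiment 2. In experiment 1 miR-486a-5p held most of that sum, 48013 of 48218 pair-fed reads, and miR-451a alone stood at 519%. The muscle circle at 645% rests on 3 and 20 reads in all.

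By the distance between their pairs of log2 ratios (experiment 1, experiment 2), over 124 other microRNAs that reached 100 reads in 1 or both libraries of each table, the names most like miR-486a-5p were miR-15b-5p, miR-145a-5p, miR-181d-5p, let-7b-5p and miR-148a-5p, at distances of 0.55, 0.78, 0.79, 1.01 and 1.03. Those most like miR-451a were miR-127-3p, miR-15b-5p, miR-145a-5p, miR-411-5p and miR-181d-5p, at distances of 1.25, 1.32, 1.52, 1.60 and 1.61. miR-15b-5p, near both, had 105 and 226 reads in experiment 1 and 47.3 and 26.5 RPM in experiment 2, with log2 ratios of 1.05 and -0.83. In experiment 2 the log2 ratios of miR-145a-5p, miR-181d-5p, let-7b-5p and miR-148a-5p were -0.0018, -0.28, -0.09 and -0.15, beside -0.60 for miR-486a-5p. Those of miR-127-3p and miR-411-5p were -1.68 and -1.96, beside -0.77 for miR-451a. The names are the nearest of the 124 and need not be close. Each likeness rests on 4 libraries.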

How the data were processed

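Total RNA of mouse livers was size-selected by gel electrophoresis, amplified by RT-PCR and sequenced by the authors. For experiment 1 the authors deposited read counts per mature microRNA, as raw values. The table that the authors deposited for experiment 2 holds RPM, which sum to 999899 (pair-fed) and 999896 (ethanol-fed) over all names. The aligner, counter, annotation and filters are not given in the sources used here, and the submitters' processing notes name the build mm8. The authors' fold changes and p-values in the second table were not used, and 0 columns with values of a library could not be matched to a group.

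The 7 names and all lists were chosen with earlier results of these data known. The log2 of the ethanol-fed value divided by the pair-fed value was computed per total, after adding 1 read per library, for names with at least 10 reads in both libraries of a table together. The pseudocount understates ratios of rare names. For experiment 2, a read was given the size of the spacing that held for 97.0% of 296 (pair-fed) and 96.6% of 291 (ethanol-fed) values under 60 RPM, within 0.006 RPM. The lowest value above 0 was 0.92 RPM, about 10 steps, so a listed 0 can hide up to 9 reads. In experiment 1 a count of 0 allows up to 0.719 (pair-fed) or 0.696 RPM (ethanol-fed). Levels of the tables were normalized separately.

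Intervals are exact for experiment 1 (Poisson for a level, Clopper-Pearson for a ratio of 2 counts), computed in the same way from estimated reads and so approximate for experiment 2, or normal on the log scale for a change of a ratio. Each table holds 1 library per group and the tables were normalized separately, so no test was run within or across them and no p-value was computed. A name was counted as higher or lower past 2-fold. Names from the lists are the most abundant member and any past 2-fold, and the likeness rule took the 5 nearest names. On simulated libraries of experiment 1 (484 names), 97.7% of 132 names changed 4-fold were found, and 3.98% of 176 unchanged names were called. For experiment 2 (469 names) it was 97.9% of 193 and 1.89% of 265. The simulated reads varied by counting error only, with no spread between animals or libraries and without the cut at low values of experiment 2. These shares are therefore not error rates of the real comparisons. Hairpins were folded with RNAfold 2.7.2. Intervals used scipy 1.17.1, tables were read with pandas 2.3.3 and numpy 2.4.6, and figures were drawn with matplotlib 3.10.9, all under Python 3.11.15.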

Additional observations from a re-analysis of the deposited data

Results flagged for a closer look

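For 5 of the 7 erythroid names the ethanol-fed library was higher than the pair-fed one in experiment 1 and lower in experiment 2. The log2 ratio of experiment 1 minus that of experiment 2 was 3.13 for miR-451a, 2.12 for miR-144-3p, 1.73 for miR-144-5p, 2.15 for miR-486a-5p and 1.92 for miR-486b-5p. In experiment 2, miR-486a-5p and miR-486b-5p were listed with the same value, so they are not separate cases. With 1 library per group in each experiment these differences were not tested.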

How the results depend on the processing

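All 98 values of single erythroid names under the alternatives had the sign of the reported value. Of these, 89 stayed within the counting interval. The other 9 moved beyond it, all for miR-486a-5p (1.52 to 1.62) and miR-486b-5p (1.29 to 1.39) in experiment 1 under other scalings or without miR-486b. The 89 include values fixed in advance, since another minimum or another reading of a 0 cannot change a name with reads in both libraries. miR-144-5p in experiment 1 ranged from 0.92 to 1.02 and reached 2-fold with unscaled reads and with the 7 names left out of the totals, which took the count past 2-fold from 5 to 6 of 6 tested. The count was 4 of 5 tested without miR-486b and 4 of 5 with a minimum of 100 reads, which removes miR-486a-3p. Scalings shifted the median log2 ratio of all microRNAs by at most 0.066. The 24 values of within-library ratios under alternatives stayed within their intervals, but only the pseudocount and the reading of a 0 were varied. No name in these ratios stood at 0, so the second could not change them, and robustness to other choices was not tested.

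Counts over all microRNAs depended on the minimum. In experiment 1, 38 were at least 2-fold higher and 39 lower, against 99 and 102 with no minimum and 10 and 9 with a minimum of 100 reads. In experiment 2, 50 were higher and 71 lower, against 12 and 24 with a minimum of 100 reads. Where each 0 was replaced by the smallest value listed, 23 were higher and 49 lower. These follow from which names enter or how a 0 is read. Unscaled reads were not tried in experiment 2, which holds RPM. With 1 library per group, no depth separates animals from treatment, and names under 10 reads cannot be compared in experiment 2.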

Other observations

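Between the pair-fed libraries of the separately normalized tables, miR-451a was 34.0-fold lower in experiment 1 than in experiment 2, and miR-144-3p and miR-144-5p were 7.38-fold and 5.05-fold lower. miR-486a-5p was instead 14.1-fold higher in experiment 1, and miR-486b-5p 17.2-fold, while miR-486a-3p differed 1.16-fold. Ordered from the lowest ratio of experiment 1 over experiment 2 among 283 microRNAs, miR-451a stood 21st, and from the highest, miR-486a-5p stood 16th. The strands of miR-486a shifted by 3.93 on the log2 scale (5′ over 3′), the 16th largest shift of 71 hairpins, whose median size was 2.62, while those of miR-144 shifted by 0.55.

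Of 2 pairs of names with 1 mature sequence each, 1 had equal values in experiment 1 and 2 in experiment 2.

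In a count whose limits were chosen after values were seen, 4 of 124 microRNAs other than the erythroid names were at least 2-fold higher with ethanol in experiment 1 and at -0.5 or lower on the log2 scale in experiment 2, namely miR-127-3p, miR-411-5p, miR-541-5p and miR-15b-5p. miR-127-3p had 367 reads with pair-feeding and 1092 with ethanol in experiment 1, and 272 and 84.7 RPM in experiment 2.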
